A study of Arabidopsis thaliana with 12 samples.

Results

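The group III WRKY genes around WRKY53 were followed in Arabidopsis thaliana seedlings exposed to hydrogen peroxide (H2O2) for up to 8 min. The set was chosen by name as 7 genes: WRKY53 (AT4G23810), WRKY46 (AT2G46400), WRKY70 (AT3G56400), WRKY54 (AT2G40750), WRKY30 (AT5G24110), WRKY41 (AT4G11070) and WRKY55 (AT2G40740). Of these, 5 were among the 20972 genes listed in the expression values, and WRKY41 and WRKY55 were not listed there and were not analysed here. All 5 listed members passed the filter on low values and were among the 19485 genes tested.

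Wild type Col seedlings, 5 days old and grown in liquid medium under constant light, received 1 mM H2O2 and were frozen after 2, 4 or 8 min, while the 0 min seedlings received distilled water. Each of the 4 time points had 3 replicate libraries of polyadenylated RNA, from about 100 to 150 pooled whole seedlings each, and the experiment was done as 3 repeats. The libraries held 13558388 to 26618274 reads on genes (median 16853679), and libraries of the same time point correlated across genes with r of 0.984 to 0.991. No later water control was analysed here, so the effect of H2O2 and that of the time after adding liquid cannot be told apart. Because whole seedlings were pooled, fewer cells of a type and less RNA per cell cannot be told apart either.

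WRKY proteins are plant transcription factors named after a conserved WRKY amino acid stretch in their DNA-binding domain, which also holds a zinc finger. They bind W-boxes, promoter elements built on the core TTGAC, and many WRKY genes carry W-boxes of their own and are regulated by WRKY proteins. Group III is the class with a zinc finger of the C2HC type, and its Arabidopsis members are known mainly from salicylic acid signalling, resistance to pathogens and leaf senescence. WRKY53 is a regulator of the onset of leaf senescence whose transcript was known to respond to H2O2.

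The 5 listed members lie on 4 chromosomes of the TAIR10.1 assembly, all on the minus strand. WRKY53 occupies chr4:12392370-12393982 and has 2 exons. WRKY46 lies at chr2:19043411-19044955, WRKY70 at chr3:20908711-20910623, WRKY54 at chr2:17000419-17002528 and WRKY30 at chr5:8153115-8154710, and each of these 4 genes has 3 exons. WRKY54 and WRKY55 are neighbours on opposite strands, 919 bases apart.

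The 250 bases before the annotated start of 4 members are given here, because WRKY53, WRKY46 and WRKY70 were the members that rose and WRKY30, with the most W-box cores, was not called at any time. Sequences run 5′ to 3′ on the minus strand from TAIR10.1 (RefSeq), and capitals mark TTGAC or its reverse complement GTCAA. The regions are chr4:12393983-12394232 for WRKY53, chr2:19044956-19045205 for WRKY46, chr3:20910624-20910873 for WRKY70 and chr5:8154711-8154960 for WRKY30.
WRKY53: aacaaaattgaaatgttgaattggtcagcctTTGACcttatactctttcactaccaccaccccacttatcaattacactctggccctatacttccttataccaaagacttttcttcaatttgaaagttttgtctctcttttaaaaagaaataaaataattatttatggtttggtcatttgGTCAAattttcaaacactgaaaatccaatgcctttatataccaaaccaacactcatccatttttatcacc
WRKY46: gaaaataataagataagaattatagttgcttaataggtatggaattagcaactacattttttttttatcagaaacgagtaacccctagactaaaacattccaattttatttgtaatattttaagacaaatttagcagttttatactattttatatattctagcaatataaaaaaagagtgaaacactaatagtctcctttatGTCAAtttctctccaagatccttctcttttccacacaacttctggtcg
WRKY70: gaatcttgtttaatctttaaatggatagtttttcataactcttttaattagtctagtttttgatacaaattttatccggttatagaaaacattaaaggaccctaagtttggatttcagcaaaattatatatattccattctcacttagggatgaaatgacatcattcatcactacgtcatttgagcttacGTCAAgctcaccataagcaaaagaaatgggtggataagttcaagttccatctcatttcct
WRKY30: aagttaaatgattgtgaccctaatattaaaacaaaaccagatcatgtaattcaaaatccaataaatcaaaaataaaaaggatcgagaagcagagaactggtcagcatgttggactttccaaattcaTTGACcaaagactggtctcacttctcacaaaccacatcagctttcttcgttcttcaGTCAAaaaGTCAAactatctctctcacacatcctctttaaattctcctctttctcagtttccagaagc

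On both strands together, the core TTGAC occurred 2 times before WRKY53, 219 and 70 bases upstream of the start. It occurred 1 time before WRKY46 and 1 time before WRKY70, 48 and 60 bases upstream, 3 times before WRKY30 and 0 times before WRKY54. Both cores of WRKY53 were followed by C, giving TTGACC, and 1 of the 3 cores of WRKY30 read TTGACC and 2 read TTGACT. These longer motifs contain the core and were not counted in addition to it. Among 27443 promoters of protein-coding genes of the same length, 44.9% held at least 1 core, 14.1% at least 2 and 3.38% at least 3, while 12.2% held TTGACC and 19.1% TTGACT. Cores were thus found before members that rose and before one that was not called, and a match is a description of the letters only.

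The WRKY53 transcript rose after 8 min of H2O2, with a mean 2.30 times that of 0 min. Its normalized counts were 215, 112 and 129.9 at 0 min, 202, 161 and 141 at 2 min, 210.0, 164 and 209.6 at 4 min, and 453, 275 and 324 at 8 min, in the order of replicates 1, 2 and 3. All 3 libraries of 8 min lay above every library of the other times, while the libraries of 0, 2 and 4 min overlapped, and replicate 1 was the highest at each time, if only just at 4 min. A normalized count is the number of reads on the gene after division by 1 size factor per library, and 100 to 428 reads stood behind each WRKY53 value. By time, the replicates averaged 153 ± 55.2 (0 min), 168 ± 31.1 (2 min), 195 ± 26.5 (4 min) and 350.5 ± 92.1 (8 min), as mean ± SD of 3 libraries.

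At 8 min against 0 min the log2 change of WRKY53 was 1.22 (SE 0.23, 95% interval 0.72 to 1.72), a ratio of means of 2.30, with an adjusted p of 0.0167 from limma with Benjamini-Hochberg adjustment over all tested genes. Log2 changes here are differences of log2(normalized count + 1), and a gene was called when its adjusted p was under 0.05. By the size of its log2 change WRKY53 ranked 110 of the 19485 genes. The changes at 2 min (0.18, adjusted p = 0.817) and 4 min (0.40, adjusted p = 0.435) did not pass in limma. The 8 min call was lost when 8 min replicate 1 (adjusted p = 0.101), 0 min replicate 2 (0.0811) or 0 min replicate 3 (0.0940) was left out of the limma fit, and when 8 and 0 min were fitted alone (0.0888). It held in 9 of the 12 limma fits without 1 library, in edgeR (adjusted p = 0.0195) and in DESeq2 (adjusted p = 4.9e-05).

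WRKY46, whose product acts in basal defence and in drought and osmotic stress responses, also rose by 8 min, at a lower level. Its normalized counts were 43.1, 25.8 and 35.4 at 0 min, 58.3, 38.6 and 40.9 at 2 min, 74.1, 66.4 and 59.9 at 4 min, and 72.4, 76.4 and 88.3 at 8 min. The 4 min libraries already lay above all 3 libraries of 0 min and of 2 min, and they overlapped those of 8 min. These values rested on 23 to 119 reads. By time, the replicates averaged 34.8 ± 8.65 (0 min), 45.9 ± 10.8 (2 min), 66.8 ± 7.12 (4 min) and 79.0 ± 8.24 (8 min), as mean ± SD of 3 libraries.

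The log2 change of WRKY46 at 8 min against 0 min was 1.19 (SE 0.21, 95% interval 0.74 to 1.64), a ratio of means of 2.27, with an adjusted p of 0.00897 in limma. It was called in each of the 12 limma fits that left out 1 library, with log2 changes between 0.99 and 1.35, and the adjusted p was 0.0512 when 8 and 0 min were fitted alone. At 4 min the log2 change was 0.95 and missed the threshold in limma (adjusted p = 0.0555), whereas DESeq2 called it (adjusted p = 0.0202). At 2 min it was 0.40 (adjusted p = 0.476 in limma).

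WRKY70, which stands between salicylic acid and jasmonic acid signalling and represses senescence, rose as well at 8 min. Its normalized counts were 89.1, 97.7 and 105 at 0 min, 119, 91.3 and 74.7 at 2 min, 153, 145 and 132 at 4 min, and 160.2, 143 and 190.2 at 8 min. No library of 4 or 8 min overlapped those of 0 or 2 min, and the 4 and 8 min libraries overlapped each other. By time, the replicates averaged 97.4 ± 8.13 (0 min), 95.02 ± 22.4 (2 min), 143 ± 10.4 (4 min) and 165 ± 23.8 (8 min), as mean ± SD of 3 libraries.

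At 8 min against 0 min the log2 change of WRKY70 was 0.74 (SE 0.16, 95% interval 0.39 to 1.09), a ratio of means of 1.69, with an adjusted p of 0.0408 in limma. The call was close to the threshold: it held in 3 of the 12 fits without 1 library (adjusted p of 0.0182 to 0.139) and was lost with quantile normalization (0.0533) and with 8 and 0 min fitted alone (0.0683). Neither the −0.06 of 2 min (adjusted p = 0.927) nor the 0.55 of 4 min (adjusted p = 0.139) passed in limma.

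WRKY54, the closest relative of WRKY70 and likewise a negative regulator of senescence, was low and was not called at any time. Its normalized counts were 30.4, 15.7 and 26.3 at 0 min, 26.8, 18.0 and 11.3 at 2 min, 19.1, 26.8 and 18.5 at 4 min, and 14.3, 21.2 and 20.6 at 8 min. All 4 time points overlapped. The log2 change at 8 min against 0 min was −0.32 (SE 0.33, 95% interval −1.04 to 0.39, adjusted p = 0.716 in limma), and with 13 to 33 reads per library the interval held falls and rises alike.

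WRKY30, known for a role in tolerance of oxidative stress, was not called at any time and had the widest spread of the members at 8 min. Its normalized counts were 61.7, 29.2 and 43.6 at 0 min, 65.3, 46.3 and 32.2 at 2 min, 30.3, 47.1 and 33.5 at 4 min, and 62.5, 10.9 and 68.6 at 8 min. The time points overlapped, and 8 min replicate 2, the most deeply sequenced library, held the lowest value, with 17 reads. The coefficient of variation (SD over mean) at 8 min was 66.95%, where the counting of reads alone would give 17.4%.

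The log2 change of WRKY30 at 8 min against 0 min was −0.23 (SE 0.54, 95% interval −1.38 to 0.93, adjusted p = 0.893 in limma). Its sign was not settled: it was 0.60 without 8 min replicate 2 (adjusted p = 0.418), 0.031 without 0 min replicate 1, and 0.059 in DESeq2. In the same library WRKY53 and WRKY70 also had their lowest values of 8 min, and WRKY46 and WRKY54 did not.

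**Figure D1:**
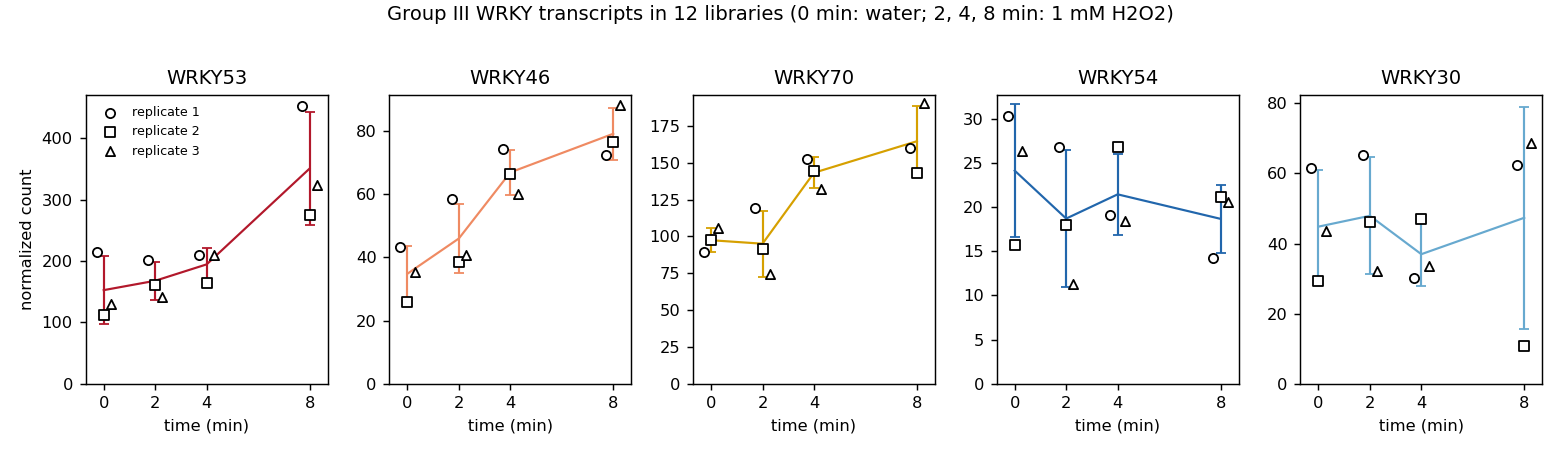
Normalized counts of the 5 listed members (y axes, each from 0) against minutes (x axis; 0 min water, 2 to 8 min 1 mM H2O2), with 1 symbol per replicate, shifted sideways for visibility, and lines and bars for the mean ± SD (n = 3). The 3 WRKY53 libraries of 8 min, at 275 to 453, sit above all others, WRKY46 and WRKY70 are already higher at 4 min than at 0 min in all replicates, and WRKY30 at 8 min spans 10.9 to 68.6.

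Set side by side, 3 of the 5 tested members were called higher at 8 min than at 0 min, against 1.29% of all tested genes (251 of 19485), and 0 were called lower, against 0.0513% of all genes. The members were chosen with earlier results of these data known, so these shares describe them and are not a test. The replicates of 8 min lay wholly above those of 0 min in the same 3 members, WRKY53, WRKY46 and WRKY70, against 8.56% of all genes. The median log2 change of the 5 members was 0.74 at 8 min, against −0.0046 for all tested genes, and 3 of the 5 were above 0.

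At 4 min 0 members were called in limma or edgeR, against 0.754% of all genes called higher in limma and 0.667% in edgeR, and 1 was called in DESeq2, which called 1.89% of all genes higher. Of the 5 members, 2 had an unadjusted p under 0.05 at 4 min (WRKY46 and WRKY70), against 8.6% of all genes with such a p and a higher level. The 4 min replicates lay above those of 0 min in these 2 members, against 10.5% of all genes. At 2 min 0 members were called in limma, edgeR or DESeq2 and 0 had an unadjusted p under 0.05 in limma. DESeq2 gave no adjusted p at 2 min for WRKY46, WRKY54 and WRKY30, so it could call only WRKY53 or WRKY70. Of all genes, 0.0% were called higher at 2 min in limma and edgeR and 0.272% in DESeq2, and 6.36% were higher with an unadjusted p under 0.05. The members' median log2 change was 0.10 at 2 min and 0.40 at 4 min, against −0.00049 and −0.0097 for all tested genes.

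**Figure D2:**
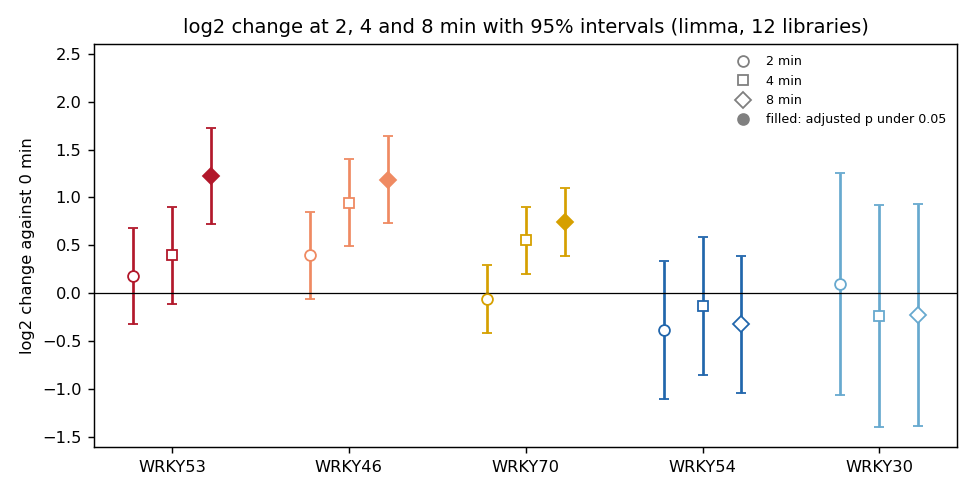
Log2 change of each listed member at 2, 4 and 8 min against 0 min (y axis), as points with 95% intervals from 1 limma fit to the 12 libraries, filled where the adjusted p was under 0.05. Filled points are seen only at 8 min, for WRKY53 (1.22), WRKY46 (1.19) and WRKY70 (0.74), and the intervals of WRKY54 and WRKY30 cross 0 at each time.

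The H2O2 times were also compared with each other. The mean of WRKY53 at 8 min was 1.80 times that at 4 min, with a log2 change of 0.82 (95% interval 0.32 to 1.33). The 8 min replicates were all above those of 4 min, against 3.88% of all genes, yet the adjusted p in limma was 0.995 (unadjusted 0.00352), and 0.0% of all genes were called higher in this comparison (343 at an unadjusted p under 0.05, 2 called by edgeR and 31 by DESeq2). WRKY46 and WRKY70 had log2 changes of 0.24 and 0.19 between 4 and 8 min, with overlapping replicates.

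Between 2 and 4 min, WRKY70 had a log2 change of 0.61 (4 min minus 2 min, unadjusted p = 0.00234, adjusted p = 0.705 in limma) and WRKY46 one of 0.55 (unadjusted p = 0.0205, adjusted p = 1.00). Their replicates did not overlap, against 5.13% of all genes with 4 min wholly above 2 min. WRKY53 had a log2 change of 0.22 over the same interval, with overlapping replicates. At 8 min against 2 min WRKY70 was the 1 member called (log2 change 0.80, adjusted p = 0.0421 in limma, against 0.626% of all genes called higher), and WRKY53 had a larger change that missed the threshold (1.04, adjusted p = 0.0791). That WRKY70 call was lost in 11 of the 12 fits without 1 library (adjusted p of 0.0122 to 0.208), with quantile normalization and with these 2 times fitted alone. DESeq2 called both WRKY70 and WRKY53 in this comparison (0.837% of all genes called higher), and leaving out 0 min replicate 1 ended the WRKY70 call (adjusted p = 0.0566) and gave one of WRKY53 (0.0226).

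Whether 2 members differed in their response was tested on the log2 ratio of their values within each library, for 3 ratios. The log2 ratio of WRKY53 to WRKY70 was 1.49, 0.94 and 0.76 at 8 min and 1.26, 0.20 and 0.30 at 0 min. The groups overlapped, and the difference of means of 0.48 gave p = 0.3 (exact two-sided permutation test, 3 against 3, for which 0.1 is the smallest possible p). With 0.1 as its smallest p, the test could not pass the threshold used here, so it could not decide whether WRKY53 rose more than WRKY70. Within each replicate number the ratio was higher at 8 min than at 0 min, and this pairing was not tested.

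The other 2 ratios were chosen after the values were seen. The log2 ratio of WRKY70 to WRKY54 was 3.40, 2.70 and 3.15 at 8 min and 1.52, 2.56 and 1.96 at 0 min, a difference of 1.07 without overlap. The log2 ratio of WRKY53 to WRKY46 was 2.63, 1.83 and 1.86 at 8 min and 1.49, 1.29 and 1.79 at 4 min, a difference of 0.58 without overlap. Both gave p = 0.1 in the exact permutation test (0.15 with Benjamini-Hochberg adjustment over the 3 ratios), the smallest that 3 against 3 allows, so the test could not pass 0.05 and these ratios are descriptions.

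Levels were compared between members after division by the exon length of each gene. WRKY53 was the most abundant member at each time, with 232 ± 60.9 normalized counts per kilobase at 8 min and 101 ± 36.5 at 0 min (SD, n = 3 each). At 8 min WRKY70 followed with a mean level per kilobase of 112, then WRKY46 with 58.4, WRKY30 with 36.7 and WRKY54 with 13.0. Of the neighbours in this order, only WRKY30 and WRKY54 had overlapping replicates.

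At 0 min WRKY30 stood above WRKY46 in the order of mean levels per kilobase, which were 101 for WRKY53, 66.2 for WRKY70, 34.8 for WRKY30, 25.7 for WRKY46 and 16.9 for WRKY54. Here the replicates of WRKY30 overlapped those of WRKY46, and WRKY46 overlapped WRKY54. Among 20858 listed genes with a length, 63.8% had a lower mean level per kilobase than WRKY53 at 8 min, and 42.1% did so at 0 min. For WRKY54 these shares were 10.8% at 8 min and 13.8% at 0 min.

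WRKY53 overlaps a gene on the opposite strand, 3xHMG-box2 (AT4G23800), which encodes a chromatin protein with HMG boxes. The genes share 341 bases at their ends, and 264 of 1465 stretches of 50 bases of the WRKY53 transcript were found in it. The library kit keeps strand, but the strand setting of the counting is not given in the sources used here, so reads of the shared bases could have counted for either gene. The mean normalized count of 3xHMG-box2 was 378 ± 35.9 (0 min), 253 ± 32.3 (2 min), 266 ± 25.7 (4 min) and 344 ± 66.4 (8 min; SD, n = 3 each), with log2 changes of −0.58, −0.50 and −0.15 at 2, 4 and 8 min that did not pass in limma (adjusted p = 0.221, 0.120 and 0.683). Its mean was lower at 8 min than at 0 min but higher than at 2 and 4 min, while that of WRKY53 was highest at 8 min. The part of the shared bases in the WRKY53 values was not tested.

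The other 4 listed members shared 0 such stretches with any other transcript. SDH8 (AT2G46390), a subunit of mitochondrial succinate dehydrogenase, begins 176 bases beyond the 3′ end of WRKY46 on the same strand, and its log2 difference of 8 min from 0 min was −0.15 (adjusted p = 0.375 in limma). AGP41 (AT5G24105), an arabinogalactan peptide gene 107 bases from WRKY30 on the other strand, had one of −0.57 (adjusted p = 0.374).

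The rest of the WRKY family gave a setting for the group. The annotation holds 72 WRKY genes, of which 58 were listed and 57 tested. Of 59 genes of the other WRKY groups, 51 were tested and limma called 4 higher at 8 min and 0 lower, where 1.29% of all genes were called higher, with a median log2 change of 0.17. At 8 min edgeR called 4 higher (1.34% of all genes) and DESeq2 called 6 (1.92%). In limma 11 of the 51 were higher at 8 min with an unadjusted p under 0.05 (8.03% of all genes). A log2 change above 0 was found in 40 of the 51 at 8 min, against 49.0% of all genes. At 4 min limma and edgeR called 0 and DESeq2 called 1, and 10 of the 51 were higher with an unadjusted p under 0.05 (8.6% of all genes). At 2 min all 3 tools called 0, and 6 were higher with an unadjusted p under 0.05 (6.36% of all genes).

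The 4 called genes all act in defence signalling. WRKY40 (AT1G80840) averaged 885 ± 189 at 8 min and 242 ± 79.9 at 0 min, and its log2 change of 1.90 (adjusted p = 0.000818 in limma) was the largest of the named WRKY genes. WRKY33 (AT2G38470), needed for resistance to necrotrophic fungi, averaged 1749 ± 219 at 8 min and 691 ± 117 at 0 min (log2 change 1.34, adjusted p = 0.00011). WRKY18 (AT4G31800), a partner of WRKY40, had a log2 change of 0.85 (adjusted p = 0.0344), and WRKY22 (AT4G01250), which acts downstream of the flagellin receptor, one of 0.75 (adjusted p = 0.0355). Of 6 further group III genes, WRKY38 (AT5G22570) was the 1 tested, at 11.5 ± 3.94 at 8 min and 18.5 ± 5.47 at 0 min (log2 change −0.64, adjusted p = 0.569).

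Genes reported to control WRKY53 or other group III members did not pass in limma. Of 10 genes on that list, 9 were tested, and 0 were called at any time in limma or edgeR. At 8 min DESeq2 called 1 higher (1.92% of all genes), and 1 was higher with an unadjusted p under 0.05 in limma (8.03%). At 4 min 1 was lower with an unadjusted p under 0.05 in limma (7.02% of all genes). The median log2 change at 8 min was −0.07. The largest change was that of MPK3 (AT3G45640), a mitogen-activated protein kinase of the oxidative stress and defence cascades, at 1834 ± 85.6 at 8 min and 1409 ± 46.2 at 0 min (log2 change 0.38, adjusted p = 0.0599 in limma). REVOLUTA (REV, AT5G60690), a homeodomain factor known to bind the WRKY53 promoter, had log2 changes of −0.19 at 4 min and −0.16 at 8 min (adjusted p = 0.263 and 0.405 in limma).

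Of 12 reported targets of WRKY53, which include the catalase genes and several other WRKY genes, 9 were tested. WRKY22 was the 1 called, at 8 min, where limma called 1.29% of all genes higher, and the median log2 change at 8 min was 0.22. WRKY22 also belongs to the other WRKY groups above, so this is not a second gene. At 8 min 1 target was higher (8.03% of all genes) and 1 lower (5.69%) with an unadjusted p under 0.05. The catalase genes CAT1, CAT2 and CAT3 had log2 changes of −0.25, 0.34 and −0.22 at 8 min (adjusted p = 0.246, 0.429 and 0.394 in limma).

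Salicylic acid induces WRKY46, WRKY53, WRKY54 and WRKY70, and 15 of 19 genes of its synthesis and signalling were tested. CBP60G (AT5G26920), a calmodulin-binding activator of salicylic acid synthesis, was the 1 called. It averaged 339 ± 59.0 (0 min), 452 ± 20.9 (2 min), 538 ± 23.8 (4 min) and 627 ± 75.2 (8 min), as mean ± SD of 3 libraries. Its log2 changes of 0.68 (4 min, adjusted p = 0.0183 in limma) and 0.89 (8 min, adjusted p = 0.00109) both passed. A difference in timing between CBP60G and the group III members was not tested. ICS1 (AT1G74710), the main enzyme gene of salicylic acid synthesis and named here after its values were seen, had log2 changes of −0.37, −0.33 and −0.31 at 2, 4 and 8 min, each with an unadjusted p under 0.05 and none called in limma (adjusted p = 0.250, 0.191 and 0.246). At 8 min 3 of the 15 genes were higher (8.03% of all genes) and 1, ICS1, lower (5.69% of all genes) with an unadjusted p under 0.05, and the median log2 change of the list was 0.17.

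WRKY70 is known to hold back jasmonic acid responses. Of 6 genes of that pathway 3 were tested, and 0 were called at any time in limma, edgeR or DESeq2, nor had any an unadjusted p under 0.05. The jasmonate receptor gene COI1 (AT2G39940) and LOX2 (AT3G45140), an enzyme gene of jasmonate synthesis, differed from 0 min by 0.08 and −0.06 on the log2 scale at 8 min (adjusted p = 0.632 and 0.963 in limma).

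**Figure D3:**
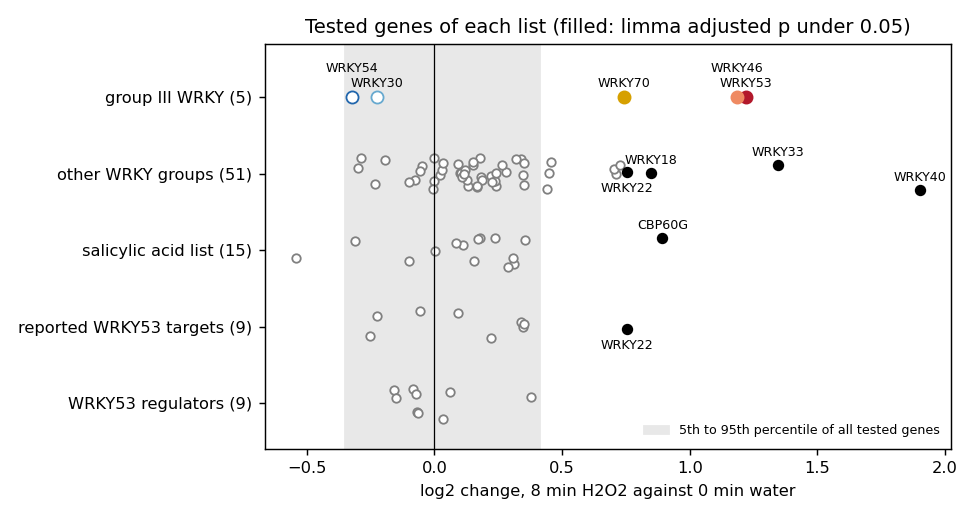
Log2 change at 8 min against 0 min (x axis) of the tested genes of 5 lists (rows), 1 circle per gene, filled where the limma adjusted p was under 0.05. The grey band spans the 5th to the 95th percentile of all tested genes, from −0.35 to 0.41. The called genes WRKY53, WRKY46, WRKY70, WRKY40, WRKY33, WRKY18, WRKY22 and CBP60G lie to its right. Some genes of the other WRKY groups that were not called, such as WRKY48 (0.73), also lie there. WRKY54 and WRKY30 lie within the band.

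Markers of the organs in the seedling pools were measured as a check on the makeup of the samples. All 5 shoot markers and all 7 root markers were tested, and 0 of either list was called at any time in limma or edgeR. At 8 min 3 of the 7 root markers and 1 of the 5 shoot markers were lower with an unadjusted p under 0.05, against 5.69% of all genes, and 0 of the 7 root markers had a log2 change above 0. DESeq2 called 1 shoot marker lower at each of 2, 4 and 8 min and 1 root marker lower at 4 min, where it called 0.216%, 0.642% and 0.4% of all genes lower at these 3 times. The summed normalized count of the root markers was 1984 to 2741 at 8 min and 2547 to 3036 at 0 min, and that of the shoot markers was 581489 to 709695 at 8 min and 660284 to 869070 at 0 min. The largest root changes at 8 min were those of EXPA7 (AT1G12560), a root hair expansin (log2 change −0.64, adjusted p = 0.263), and TIP2-3 (AT5G47450), a root aquaporin (−0.60, adjusted p = 0.262). Among shoot genes LHCB1.1 (AT1G29920) had a change of −0.54 (adjusted p = 0.119) and LHCB1.3 (AT1G29930) one of −0.26 (adjusted p = 0.685), both genes of the light-harvesting complex. The part of organ makeup in the WRKY values was not tested.

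The genes closest to WRKY53 in pattern were found by the root mean square difference of log2 values over the 12 libraries, after each gene was centred on its own mean. The nearest of all tested genes was WRKY33 (difference 0.153), and it was followed by OPR1 (AT1G76680, 0.180), an oxophytodienoate reductase, AT2G30020 (0.194), and the NAC transcription factors ATAF2 (AT5G08790, 0.201) and NAC102 (AT5G63790, 0.209). The median difference to WRKY53 over all tested genes was 0.57. All 5 had their largest log2 change at 8 min, between 0.99 for NAC102 and 1.42 for OPR1. Each was called in limma at 8 min (adjusted p of 0.00011 to 0.00273), where 1.29% of all genes were called higher. At 4 min the changes lay between 0.42 and 0.58, none called. These genes were picked by likeness to WRKY53 in the same libraries, so their high values at 8 min follow largely from that choice.

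**Figure D4:**
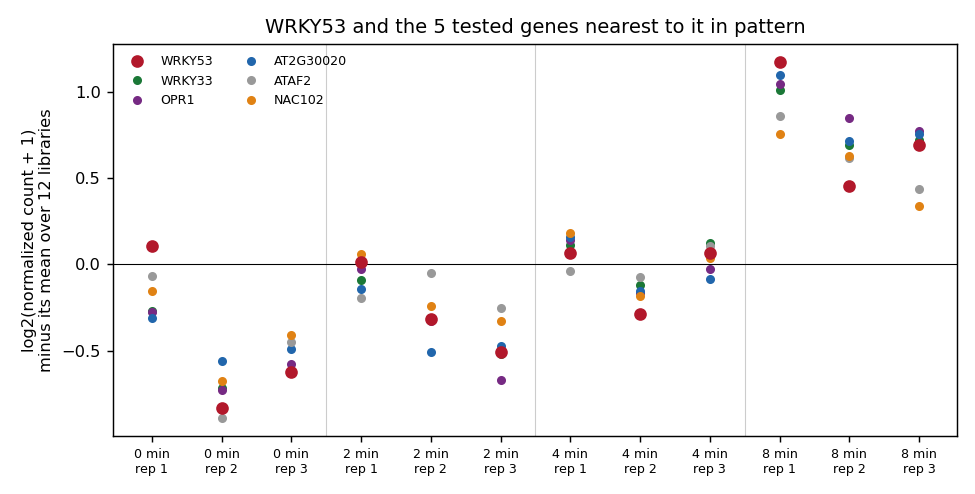
Centred log2(normalized count + 1) of WRKY53 and of the 5 tested genes nearest to it (y axis) in each of the 12 libraries (x axis, by time and replicate). All 6 genes are highest in the 8 min libraries, where replicate 1 holds the top value of each (1.17 for WRKY53), and at 0 min WRKY53 in replicate 1 (0.10) lies above the other 5 genes.

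Within the group, WRKY46 ranked 61 among the genes nearest to WRKY53 (difference 0.333) and WRKY70 ranked 170 (0.387). Seen from WRKY70, the same 0.387 put WRKY53 only at rank 5250, where the median difference over all tested genes was 0.42. WRKY54 ranked 17126 (0.677) and WRKY30 ranked 18704 (0.797), farther from WRKY53 than the median gene. The difference also grows with the spread of a gene between replicates, which was wide for these low genes. For WRKY30 the median difference to all tested genes was itself 0.70. WRKY70 stood closer to WRKY46 (0.273, rank 26) than WRKY53 did (0.333, rank 102).

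The genes nearest to WRKY46 were AT1G67470 (0.221), the ubiquitin ligase gene PUB24 (AT3G11840, 0.224), BCS1 (AT3G50930, 0.231), AT1G32920 (0.234) and NDR1 (AT3G20600, 0.236), which is needed for disease resistance through a class of immune receptors. Of these, AT1G67470 and AT1G32920 were already called at 4 min (log2 changes of 0.81 and 0.96, adjusted p = 0.0178 and 0.00399 in limma). At that time 0.754% of all genes were called higher. PUB24 was not called even at 8 min (adjusted p = 0.0560). For WRKY70 the nearest were AT2G24550 (0.196), AT5G08240 (0.197), the microRNA gene MIR169a (AT3G13405, 0.199), the syntaxin gene SYP122 (AT3G52400, 0.201) and AT1G44050 (0.209). AT2G24550 was likewise called at 4 min (log2 change 0.33, adjusted p = 0.0369 in limma), and AT1G44050 was not called at 8 min (adjusted p = 0.121). Across these 12 libraries the likeness is a description, and the genes share the libraries and their depth.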

How the data were processed

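RNA was sequenced from 12 libraries, 3 at each of 4 time points. According to the submitters' notes and the methods, the authors checked single-end reads with FastQC 0.11.7, aligned them to TAIR10 with STAR 2.4.0.1, which keeps reads with several locations, and normalized counts with DESeq2 1.20.0; the counting program is not given in the sources used here. The deposited unit is a signal: the authors' normalized count per gene, reads divided by a size factor. All values (100%) were within 0.001 of whole multiples of 1 step per library, which gave back the reads.

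Log2(normalized count + 1) was fitted with limma 3.58.1 (variance trend on the mean) to the 12 libraries, for 19485 genes with a mean of at least 10, with Benjamini-Hochberg adjustment per comparison and a threshold of 0.05. The test was tried on simulated data. Other settings tried were pseudocounts of 0.1 and 5, filters of 50 and of none, quantile normalization, edgeR 4.0.16 and DESeq2 1.42.0 on the recovered reads, a replicate block, a fit per comparison, and each library left out. Few reads limit precision, so low members have wide intervals. Where replicate libraries share a culture or handling, p-values measure only the spread between these libraries.

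The members and gene lists were chosen with earlier results of these data known. Named genes were the members, their overlapping or adjacent genes, list genes called at any time (at most 6 per list, otherwise the 2 with the largest change at 8 min) and the 5 genes nearest in pattern to each called member. Genes came from TAIR10.1 (RefSeq), with promoter windows of 250 bases. Calculations used R 4.3.3, Python 3.11.15, scipy 1.17.1 and matplotlib 3.10.9.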

Additional observations from a re-analysis of the deposited data

How the results depend on the processing

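The count of members called at 8 min against 0 min was 3 in limma, 0 with 8 and 0 min fitted alone, and 1 to 3 with each library left out. At 4 min against 0 min the count was 0, and it was 1 with DESeq2 and with the replicate block, and 0 to 1 with each library left out. At 8 min against 2 min it was 1, with 2 in DESeq2, 0 with quantile normalization, 0 with a fit of these times alone, and 0 to 1 with each library left out. The counts at 2 min against 0 min, 4 min against 2 min and 8 min against 4 min were 0 in each alternative. For WRKY46, WRKY54 and WRKY30 at 2 min against 0 min, DESeq2 gave no adjusted p. The cause of these shifts was not tested, except that fits to fewer libraries estimate the spread from fewer samples.

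Changes of sign concerned values that were not called. WRKY30 at 8 min against 0 min was 0.059 in DESeq2 and −0.67 to 0.60 with each library left out (0.031 without 0 min replicate 1). With each library left out, the log2 change against 0 min ranged between −0.012 and 0.46 for WRKY53 at 2 min, −0.23 and 0.10 for WRKY70 at 2 min, −0.17 and 0.36 for WRKY30 at 2 min, −0.40 and 0.052 for WRKY54 at 4 min, and −0.50 and 0.024 for WRKY30 at 4 min. WRKY53, WRKY46 and WRKY70 kept their sign at 8 min in every alternative.

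Across all tested genes, same-numbered libraries did not deviate together: correlations of deviations from the time means were −0.328 to 0.255 for the same number and −0.345 to 0.465 for different numbers, and 5 of 12 libraries were closest to their own number. For WRKY53 itself, replicate 1 was the highest at each time. With the replicate block in limma, the adjusted p against 0 min was 0.0337 for WRKY46 at 4 min. At 8 min against 0 min it was 0.00084 for WRKY53 and 0.0534 for WRKY70. At 8 min against 2 min the block called WRKY53 (0.00494) and not WRKY70 (0.0760). The block called 356 genes higher at 4 min against 147 in limma without it. At 8 min DESeq2 called 374 genes higher and 78 lower, limma 251 and 10, and the separate fit 151 and 0.

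WRKY54, WRKY30 and WRKY46 rested on few reads (13 to 33, 17 to 70 and 23 to 119 per library).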
